A study of Zea mays with 2 samples.

Results

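The nuclear genes for photosystem I and photosystem II proteins were described in maize (Zea mays) leaves at the V5 stage, in the cultivar Sugar 75, comparing an untreated control with seaweed-extract treatment. They were found by their family descriptions (photosystem I or II, oxygen-evolving, PsbP or PsbQ). This matched 67 loci, of which 2 chlorophyll apoprotein loci, 5 loci with plastid gene symbols and the PsbS gene GRMZM2G077333 were left out. The remaining 59 genes, of 39634 in all, comprise 16 of photosystem I and 43 of photosystem II. The set is wider than the subunits of the 2 complexes, since 11 of the photosystem II genes encode assembly or repair factors and 16 encode PsbP-like or PsbQ-like proteins. It holds none of the plastid-encoded reaction centre proteins, and all 57 genes of the plastid chromosome are listed at 0 in both libraries.

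Each group was 1 library, made per the labels from a pool of 3 independent samples and analysed with 2 technical replicates, and the series title places the work under drought stress. Both groups share the cultivar, the stage and the leaf tissue, and the treated library, titled only as the sample, was identified from the series text. The dose and composition of the extract, and whether both pools came from water-limited plants, are not given in the sources used here. Values are FPKM, sequenced fragments scaled to gene length and to the size of the library, with the interval that the authors deposited beside each value. Neither group was replicated, so each difference describes the pair of libraries, and the intervals reflect quantification within a library but no variation from plant to plant.

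Photosystem II uses light to split water in the thylakoid membrane and passes the electrons to plastoquinone. Photosystem I takes electrons from plastocyanin and, in a second light step, passes them to ferredoxin. In land plants the chlorophyll-binding reaction centre proteins come from plastid genes, whereas many of the peripheral, lumenal and stromal subunits come from nuclear genes and are imported. In maize leaves the mesophyll cells carry most of the photosystem II, and the bundle sheath chloroplasts are rich in photosystem I.

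Most genes for structural photosystem subunits were lower in the treated library, and no photosystem gene was higher by the limit used. Of the 59 genes, 7 were listed at 0 in both libraries and 1 was under 1 FPKM in both, which left 51 that reached 1 FPKM in either library. Differences are given as log2((treated + 1)/(control + 1)), and a gene with a ratio of at most -1 was counted as lower and one of at least 1 as higher. By this measure 26 of the 51 were lower and none was higher, against 2.52% lower and 3.71% higher among 16272 genes at 1 FPKM or more. The median log2 ratio of the 51 was -1.05 and that of all genes 0.22. After centring on that median gene, 33 were lower and none higher, with 3.66% of all genes lower and 2.01% higher. Another 5 genes lay just short of the limit, between -1.0 and -0.93. All 26 lower genes had deposited intervals that did not overlap. Among the 51, 36 had separate intervals on the lower side and 3 on the higher side, where all genes had 8.76% and 28.6%.

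The photosystem genes were also set beside other abundant genes. Of the 22 photosystem genes that reached 100 FPKM in either library, 18 were lower, with a median log2 ratio of -1.44. Of all 321 genes at that level, these 22 included, 17.1% were lower and their median was 0.04. Several of the 22, such as PsbQ GRMZM5G804323 (251 FPKM in control leaf and 26.3 in treated leaf), reached 100 FPKM in the control library alone. Choosing genes in this way favours lower ratios, so the share of lower genes is a description only. Ranks, which do not depend on how the libraries are scaled, moved the same way. In the control library 13 photosystem genes were among the 100 genes with the highest FPKM, and in the treated library 7 were. In the bulk samples used here, fewer cells of a type and less RNA per cell cannot be told apart.

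**Figure D1:**
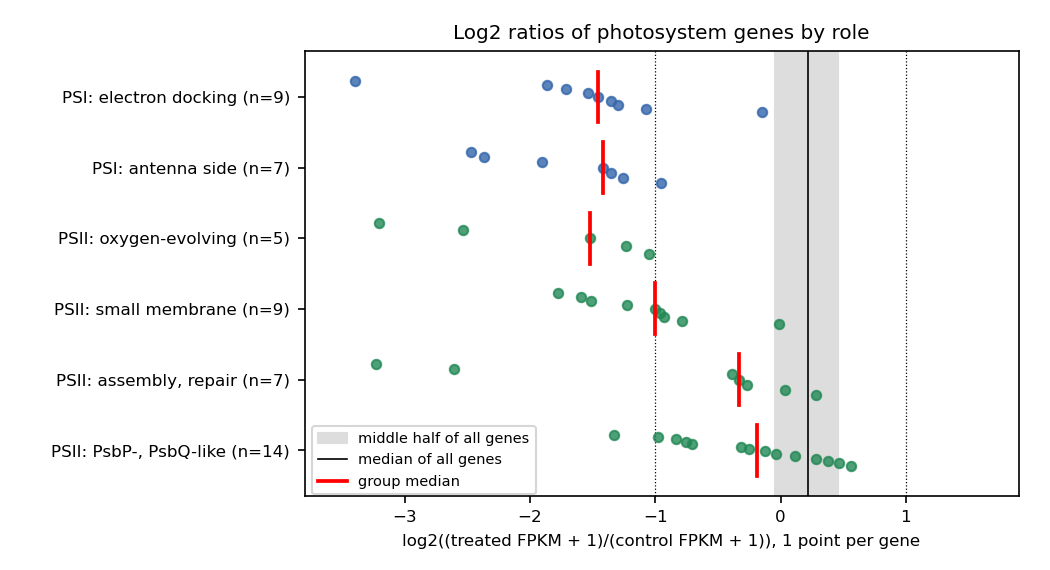
Log2 ratio of treated over control FPKM (x axis, pseudocount 1) for each of the 51 photosystem genes at 1 FPKM or more, by role (rows; PSI and PSII are photosystems I and II). Red bars are group medians, the black line and grey band are the median and interquartile range of all genes, and dotted lines mark -1 and 1. The first 3 rows have medians between -1.52 and -1.42, and the last row has a median of -0.19.

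Photosystem I genes were lower almost throughout. Of its 16 genes, all at 1 FPKM or more, 14 were lower and none higher, with a median log2 ratio of -1.44 (-1.65 with 15 lower after centring). The FPKM of the 16 genes summed to 4797 in control leaf and 1797 in treated leaf, so that the treated sum was 37.5% of the control's. As a share of all FPKM in a library, these genes made up 2.05% in control leaf and 0.781% in treated leaf.

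The subunits that dock the electron carriers formed the first group, with 8 of 9 genes lower and a median log2 ratio of -1.45. PsaD, the stromal subunit on which ferredoxin docks, is encoded by a pair of genes. GRMZM2G013342 (chromosome 1, 290448165 to 290449263) had 488 FPKM (interval 478 to 497) in control leaf and 231 (224 to 239) in treated leaf, a log2 ratio of -1.07. The copy GRMZM2G024150 (chromosome 5, 3529734 to 3530867) had 49.9 FPKM (46.8 to 52.9) in control leaf and 3.82 (2.85 to 4.80) in treated leaf, 13-fold lower. Its log2 ratio of -3.40 was the lowest of all 51 genes by the measure used, and its rank among all genes went from 530 to 8865. That place depends on the pseudocount: with 5 FPKM, GRMZM2G024150 was at -2.64 and the PsbQ gene GRMZM5G804323 at -3.03.

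PsaE, which sits beside PsaD and helps ferredoxin bind, was lower at both of its genes. GRMZM2G016066 had 373 FPKM (357 to 389) in control leaf and 136 (128 to 144) in treated leaf, and GRMZM2G016622 had 142 (135 to 149) and 38.3 (35.3 to 41.2). PsaF, which binds plastocyanin on the lumenal side, had the same pattern. GRMZM2G017290 had 154 FPKM (146 to 162) in control leaf and 59.5 (54.9 to 64.1) in treated leaf. GRMZM2G085646 had 113 (108 to 119) and 33.8 (31.1 to 36.6). The intervals of the libraries were separate for each of these genes, with log2 ratios from -1.87 to -1.35.

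PsaN, a lumenal subunit that also serves plastocyanin, came mostly from GRMZM2G080107, with 690.5 FPKM (677 to 704) in control leaf and 237 (229 to 246) in treated leaf. The minor copy GRMZM2G009048 had 23.6 (21.1 to 26.2) and 9.05 (7.33 to 10.8). A further gene with a PsaN domain, GRMZM2G090112, was the one gene of this group that was not lower. It had 7.30 FPKM (6.03 to 8.57) in control leaf and 6.48 (5.17 to 7.80) in treated leaf, with overlapping intervals.

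The membrane subunits on the sides where antenna proteins attach had 6 of 7 genes lower, with a median log2 ratio of -1.42. PsaH, which takes part in docking the mobile antenna of photosystem II during state transitions, showed the largest difference of this group. Its gene GRMZM2G451224 (chromosome 6, 163973640 to 163974980) had 338 FPKM (330.4 to 346) in control leaf and 60.3 (56.7 to 63.9) in treated leaf, 5.60-fold lower. The neighbouring subunit PsaL had a smaller difference at both copies. GRMZM2G026015 had 460 FPKM (439 to 481) in control leaf and 172 (162 to 181) in treated leaf, and GRMZM2G094224 had 219 (208 to 230.5) and 85.2 (79.3 to 91.1).

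PsaO, found on the same side of the complex, was 2.41-fold lower at GRMZM2G001653, with 382 FPKM (373 to 390.4) in control leaf and 159 (153 to 165) in treated leaf. PsaG and PsaK share a protein family and sit near the light-harvesting belt. GRMZM2G329047 and GRMZM2G377855 are annotated only to that family. The former had 295 FPKM (285 to 305) in control leaf and 56.2 (51.2 to 61.2) in treated leaf, 5.24-fold lower, and the latter 155 (149 to 161) and 40.7 (37.2 to 44.2), 3.8-fold lower. The gene annotated as PsaK, GRMZM2G012397 (psa6), was the most abundant of photosystem I and had a smaller ratio. It had 907 FPKM (867 to 948) in control leaf and 469 (446 to 492) in treated leaf, a log2 ratio of -0.95, which passed the limit only after centring (-1.17).

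**Figure D2:**
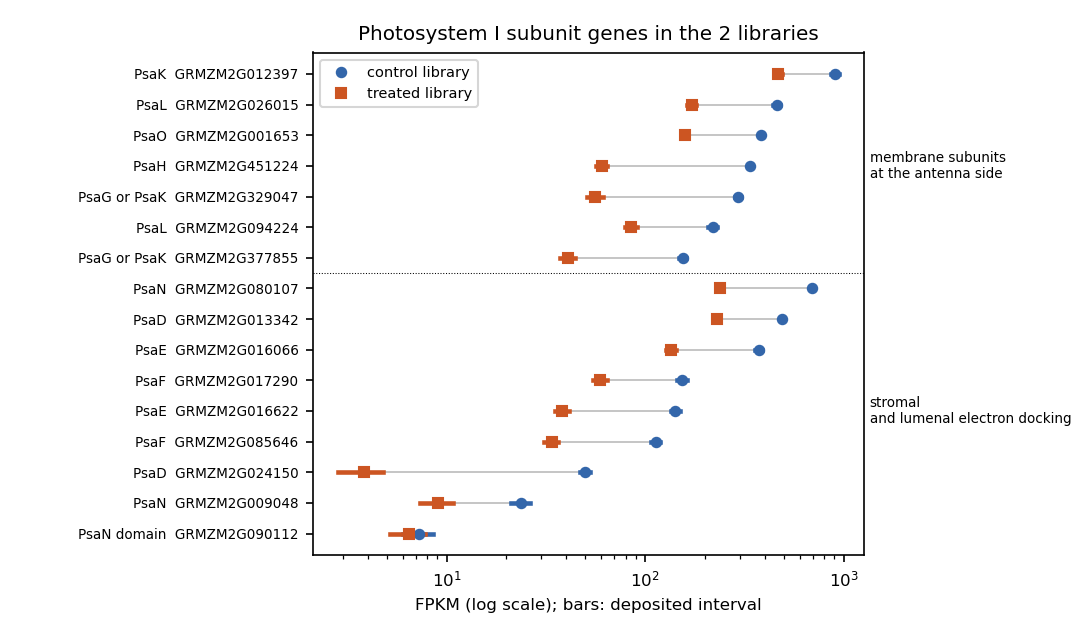
FPKM (x axis, log scale) of the 16 photosystem I genes (rows, named by subunit and gene identifier) in the control library (circles) and the treated library (squares), with the deposited interval as a bar. Every gene lies lower in the treated library, and the intervals overlap for GRMZM2G090112 alone.

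Summed over copies, the treated level of the 9 photosystem I subunits other than the PsaN-domain gene ranged from 17.8% (PsaH) to 51.7% (PsaK) of the control's. The levels were thus further apart in the treated library, where the highest subunit was 7.77 times the lowest, than in the control, where it was 3.40 times. The order in the control ran from PsaK through PsaN (714 FPKM), PsaL (679), PsaD (537), PsaE (515), the PsaG or PsaK pair (450), PsaO and PsaH to PsaF (267). Intervals for these sums, from the deposited ones added in quadrature, overlapped between PsaD and PsaE and between PsaN and PsaL. In the treated library the order began with PsaK, PsaL (257 FPKM), PsaN (246) and PsaD (235) and ended with PsaO, the PsaG or PsaK pair (96.9), PsaF (93.3) and PsaH. There the intervals overlapped between PsaL and PsaN, between PsaN and PsaD, and between the PsaG or PsaK pair and PsaF.

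Photosystem II divided by role. Its structural subunits, the oxygen-evolving proteins and small membrane subunits together, had 9 of 14 genes lower, or 13 of 14 after centring, with an interquartile range of log2 ratios from -1.57 to -0.97. The range for photosystem I was -1.87 to -1.29. Of 43 genes 35 were at 1 FPKM or more, 12 of them lower and none higher, with a median log2 ratio of -0.79 (-1.01 with 18 lower after centring). The oxygen-evolving proteins, which shield and stabilise the manganese cluster that splits water, were lower at each of the 5 genes measured, with a median of -1.52. Their summed FPKM was 1355 in control leaf and 452 in treated leaf.

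PsbO, the manganese-stabilising protein, was encoded by a major and a minor copy. GRMZM2G175562 had 719 FPKM (692 to 745) in control leaf and 305 (292 to 318) in treated leaf, 2.36-fold lower. GRMZM2G113349 had 132 (127 to 136) and 21.9 (19.9 to 23.9), 6.0-fold lower. PsbP, which retains the calcium and chloride that the reaction needs, was also lower at both copies. GRMZM2G047954 had 163 FPKM (155 to 171) in control leaf and 56.1 (52.3 to 59.8) in treated leaf, and GRMZM2G016677 had 90.1 (86.4 to 93.9) and 43.1 (40.2 to 46.1).

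PsbQ, the third of these extrinsic proteins, had the largest difference among them. GRMZM5G804323 (chromosome 2, 204174722 to 204176131) had 251 FPKM (239 to 264) in control leaf and 26.3 (23.7 to 29) in treated leaf, 9.55-fold lower. The treated level of PsbQ was thus 10.5% of the control's, against 38.4% for PsbO and 39.2% for PsbP summed over copies. The pair of loci that carry the symbol PSBQ1, GRMZM2G058070 and GRMZM2G021617, had almost no signal. The former was at 0 in both, and the latter had 0.055 FPKM in control leaf but was listed at 0 after treatment.

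Among the small membrane subunits of photosystem II, 4 of 9 genes were lower and 0 higher, with a median log2 ratio of -1.0. After centring 8 of the 9 were lower, since several lay near the limit. PsbX, a single-helix subunit, was lower at both genes. GRMZM2G380414 had 65.6 FPKM (61.1 to 70.0) in control leaf and 21.1 (18.2 to 24.0) in treated leaf, and GRMZM5G832229 had 42.3 (38.2 to 46.4) and 11.7 (9.22 to 14.1). The gene annotated as the 5 kDa protein, GRMZM2G377168, had 228 FPKM (221 to 235) in control leaf and 79.2 (74.6 to 83.8) in treated leaf, 2.88-fold lower.

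PsbY, PsbW and PsbR showed smaller differences or none. The PsbY genes GRMZM2G308944 and GRMZM2G134130 had 82.1 (77.8 to 86.4) and 66.5 (61.7 to 71.3) FPKM in control leaf and 41.6 (38.0 to 45.1) and 34.5 (30.9 to 38.0) in treated leaf. Their log2 ratios were -0.97 and -0.93. PsbW, at AC190623.3_FG001, had 378 FPKM (367 to 389) in control leaf and 219 (209 to 228) in treated leaf, a log2 ratio of -0.79. PsbR, which supports the binding of the oxygen-evolving proteins, stood apart from the other abundant subunits. Its gene psb3 (GRMZM2G174984) had 641 FPKM (613 to 668) in control leaf and 636 (609 to 664) in treated leaf, with overlapping intervals, and its rank among all genes went from 35 to 26.

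A pair of nuclear loci matched PsbK, a subunit that plants encode in the plastid. GRMZM2G015355 had 5329 FPKM (5255 to 5404) in control leaf and 2278 (2223 to 2332) in treated leaf, and GRMZM2G067883 had 126 (119.7 to 133) and 62.7 (57.4 to 68.1). A gene with a close copy elsewhere can share reads with it, so these values are uncertain. Without them the sum of the other photosystem II genes was 3228 in control leaf and 1789 in treated leaf, and 11 of 33 were lower, with a median log2 ratio of -0.76.

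Most assembly and repair factors of photosystem II did not pass the limit. Of 7 genes at 1 FPKM or more, 2 were lower and none higher, where 2.52% of all genes were lower and 3.71% higher. The median log2 ratio was -0.33. Relative to the median gene 6 of the 7 lay below, and the centred median was -0.55. Both lower genes belonged to the Psb27 family, lumenal proteins that bind photosystem II during assembly and repair. GRMZM2G056424, annotated as the repair protein PSB27-H1 (chromosome 1, 55454557 to 55455428), had 29.3 FPKM (26.5 to 32.1) in control leaf and 2.23 (1.35 to 3.11) in treated leaf, 13.1-fold lower. GRMZM2G005984, a gene with the same domain, had 14.6 (12.8 to 16.5) and 1.57 (0.901 to 2.24), 9.32-fold lower. The third member, GRMZM2G087435, is annotated as PSB27-H2, which in Arabidopsis acts in processing of the D1 protein. It had 2.24 FPKM (1.59 to 2.89) and 1.70 (1.07 to 2.33), with overlapping intervals.

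The other factors had log2 ratios from -0.39 to 0.28. HCF136, which in Arabidopsis is needed to assemble the photosystem II reaction centre, had 44.2 FPKM (41.5 to 46.9) in control leaf and 35 (32.5 to 37.4) in treated leaf at GRMZM2G102838, a log2 ratio of -0.33. Psb28, a protein that binds assembly intermediates, was the most abundant of the factors. Its gene GRMZM2G005433 had 55.2 FPKM (51.6 to 58.8) in control leaf and 67.4 (63.0 to 71.8) in treated leaf, with separate intervals and a log2 ratio of 0.28 (0.07 after centring). GRMZM2G455676 had 11.1 FPKM (9.30 to 12.9) and 8.26 (6.48 to 10), and GRMZM2G132506 had 5.80 and 5.99 FPKM, with overlapping intervals for both.

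The PsbP-like and PsbQ-like proteins, relatives of the extrinsic subunits with other tasks in the thylakoid, showed smaller differences in both directions. Of 14 genes at 1 FPKM or more, 1 was lower and none higher, 9 had negative and 5 had positive log2 ratios, and the median was -0.19. Relative to the median gene 10 of the 14 lay below, and the centred median was -0.40. The genes annotated as PsbQ-like protein 1 or 2 were on the lower side. In Arabidopsis their proteins belong to the chloroplast NADH dehydrogenase-like complex, which carries electrons around photosystem I. GRMZM2G021256 had 3.15 FPKM (2.25 to 4.04) in control leaf and 0.647 (0.190 to 1.10) in treated leaf. GRMZM5G870219 had 31.3 (28.1 to 34.5) and 15.5 (12.9 to 18.0), and GRMZM2G436986 had 7.67 and 3.87. Their log2 ratios were -1.33, -0.97 and -0.83, and the intervals were separate for each.

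The PsbP relatives went both ways. PsbP-like protein 1, linked in Arabidopsis to the repair of photosystem II, had 26.0 FPKM (23.7 to 28.2) in control leaf and 15.0 (13 to 16.9) in treated leaf at GRMZM2G176840. The PsbP domain protein 3 gene GRMZM2G172723 had 44.4 (41.3 to 47.5) and 26.8 (24.3 to 29.3). In the other direction, the PsbP domain protein 7 gene GRMZM2G126386 had 12.8 FPKM (11.3 to 14.2) in control leaf and 19.4 (17.4 to 21.4) in treated leaf. The PsbP domain protein 5 gene GRMZM2G000256 had 12.1 (10.7 to 13.5) and 17.1 (15.2 to 19.0). These were, with GRMZM2G005433, the 3 photosystem genes with separate intervals on the higher side. Their log2 ratios were 0.57 and 0.47, or 0.35 and 0.25 after centring. The PsbP domain protein 4 gene GRMZM2G087590 had 45.9 (42.7 to 49.1) and 49.9 FPKM (46.2 to 53.5), with overlapping intervals. The other 6 genes were at 2.07 to 5.96 FPKM in control leaf and 2.59 to 5.40 FPKM in treated leaf, with overlapping intervals. They include a gene with a PsbQ domain, GRMZM2G008892, with 5.42 FPKM in control leaf and 4.40 in treated leaf, a log2 ratio of -0.25.

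**Figure D3:**
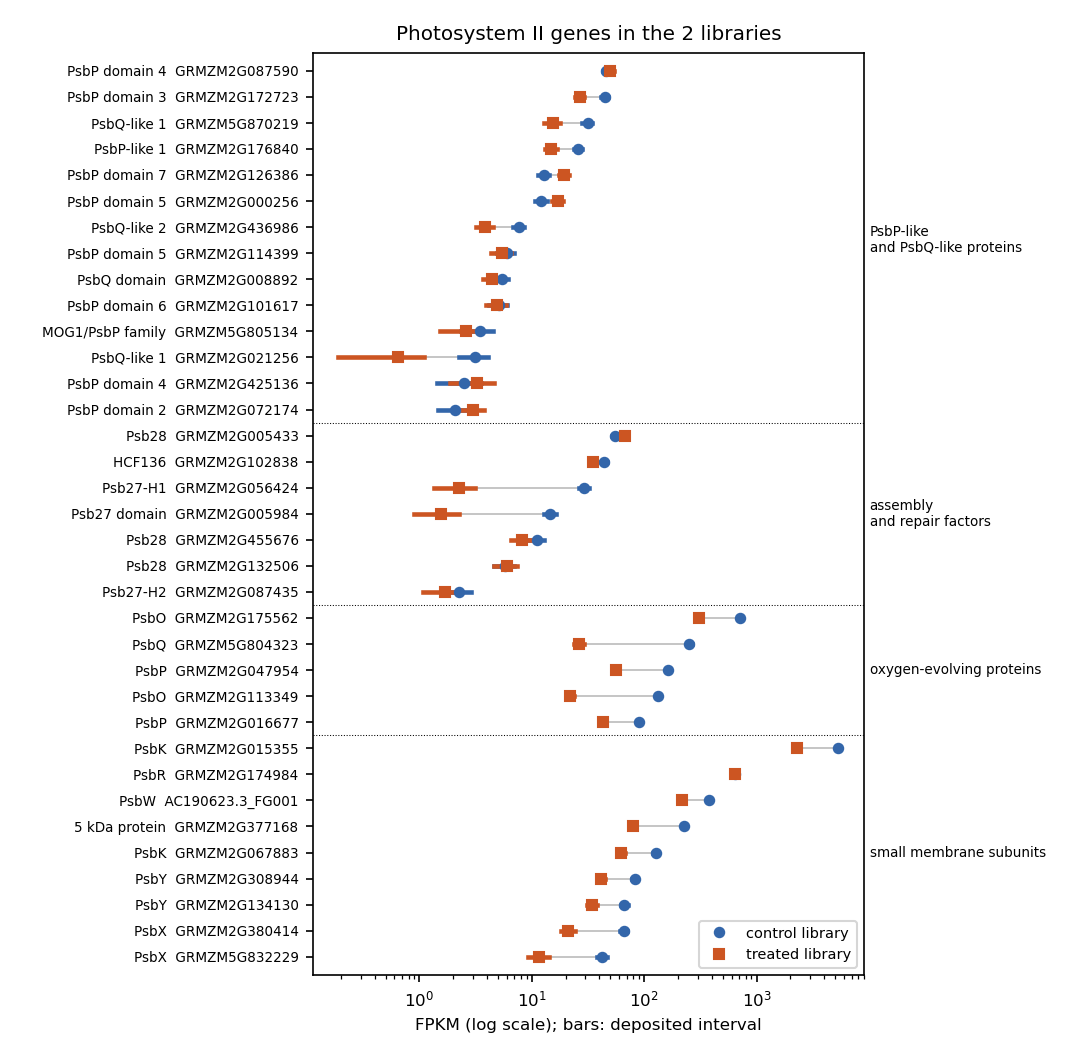
FPKM (x axis, log scale) of the 35 photosystem II genes at 1 FPKM or more (rows, by role) in the control library (circles) and the treated library (squares), with the deposited interval as a bar. The oxygen-evolving proteins and most small subunits lie lower in the treated library, PsbR lies at 641 and 636 FPKM, and most PsbP-domain genes lie close together in both libraries.

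Maize often keeps a subunit as a pair of genes on different chromosomes, and the copies did not always share the size of the difference. In 11 pairs in which each copy reached 10 FPKM in either library, all on different chromosomes, the log2 ratios of the copies were compared with the half-width that the deposited intervals give. In 4 pairs the difference was within that half-width (PsaL, PsaN, PsbX and PsbY). The copy with the lower mean FPKM had the lower log2 ratio in 4 pairs (PsaD, PsaE, PsaF and PsbO) and the higher one in 3 (the PsaG or PsaK pair, PsbK and PsbP). The widest gaps were in PsaD, where the minor copy made up 9.28% of the pair's FPKM in control leaf and 1.63% in treated leaf, and in PsbO, where it made up 15.5% and 6.71%. In PsbP the minor copy went the other way, from 35.6% to 43.5%. Where copies are nearly identical, the authors' counting could have split reads between them, so sums over copies are firmer than single values.

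**Figure D4:**
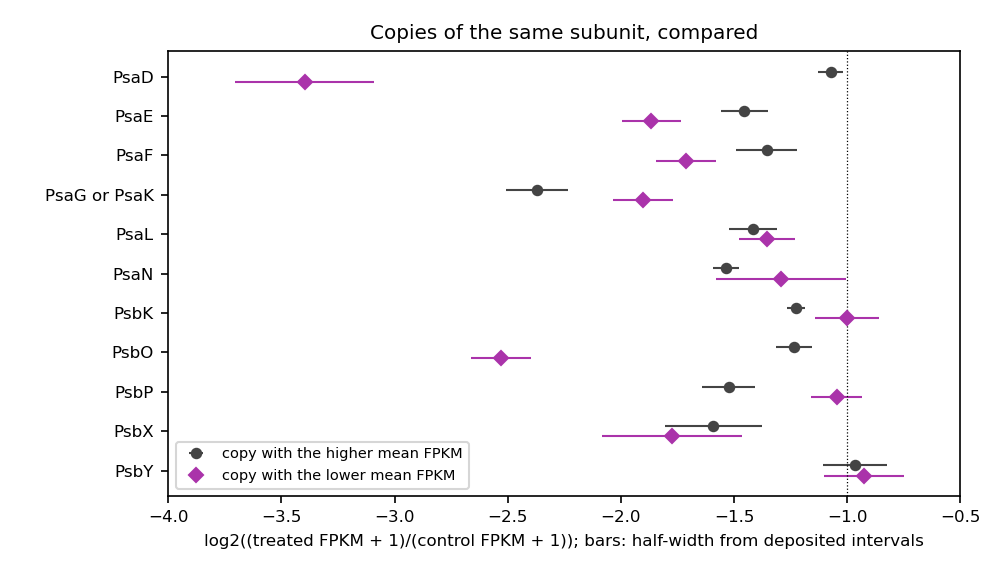
Log2 ratio of treated over control FPKM (x axis, pseudocount 1) for the copies of 11 subunits (rows), with circles for the copy with the higher mean FPKM, diamonds for the other, and bars for the half-width from the deposited intervals. The copies lie 2.32 apart in PsaD and 1.30 apart in PsbO, and overlap in PsaL, PsaN, PsbX and PsbY. The dotted line marks -1.

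In the authors' deposited table of genes lower in the treated library, with p-values up to 0.0499, 28 of the 59 photosystem genes were listed, 13 of photosystem I and 15 of photosystem II. Of the 16272 genes at 1 FPKM or more, 3.47% were listed. No photosystem gene was in the authors' deposited table of higher genes. The authors' deposited table marks 6 photosystem genes as significant, against 0.387% of all genes: PsaD GRMZM2G024150, PSB27-H1 GRMZM2G056424, PsbQ GRMZM5G804323, PsbO GRMZM2G113349, PsbX GRMZM5G832229 and GRMZM2G329047 of the PsaG and PsaK family. Their q-values in the authors' deposited table were 0.00995 for the first 3, 0.0184 for GRMZM2G113349 and GRMZM2G329047, and 0.0265 for GRMZM5G832229. With single libraries, such a test speaks of the libraries and not of the treatment.

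The authors' list and the counts above overlap in part. Of the 26 genes counted as lower here, 4 were not in the authors' deposited table: PsaD GRMZM2G013342, PsbO GRMZM2G175562, the PsbK locus GRMZM2G015355 and the Psb27-domain gene GRMZM2G005984. Conversely, 6 genes of the authors' deposited table had log2 ratios above -1 here. For the 28 listed genes the log2 fold change in the authors' deposited table was lower than the plain log2 ratio of the library FPKM by a median of -0.30 (range -0.35 to -0.24). The median over all genes, with the pseudocount, was at 0.22, which in size is under every offset in that range. The source of the offset was not tested.

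Other genes of the light reactions were set beside these. The antenna genes, which feed both photosystems, had 16 lower and 2 higher of 23 and a median log2 ratio of -1.37. Their largest differences were in GRMZM2G414192 (59.9 FPKM in the control, 0.269 in the treated library) and GRMZM2G018627 (0.126 and 32.4), which go in opposite directions. The electron carriers had 1 lower and 1 higher of 33 and a median of 0.07 (-0.15 after centring). That list took in ferredoxin-dependent enzymes, mitochondrial Rieske proteins and 7 plastocyanin-like domain proteins that are not photosynthetic carriers by their annotation. By the naming rule its largest differences at 10 FPKM or more were in the mitochondrial Rieske gene GRMZM2G171664 (7.26 and 12.5 FPKM) and the Rieske-domain gene AC203535.4_FG004 (108 and 174).

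Carriers that join the photosystems or follow them, named after their values were seen, went both ways. The Rieske protein of the cytochrome b6f complex, which passes electrons from plastoquinone to plastocyanin, had 378 FPKM (370.1 to 386) in control leaf and 498 (487 to 508) in treated leaf at ris2 (GRMZM2G162748). Its other gene, GRMZM2G038365, had 152 (147 to 157) and 185 (179 to 191). The log2 ratios of these Rieske genes were 0.39 and 0.28, or 0.18 and 0.06 after centring. Plastocyanin (GRMZM2G071450) had 638 FPKM (609 to 667) in control leaf and 476 (454 to 499) in treated leaf, a log2 ratio of -0.42 (-0.64 centred). PetM, a small subunit of the same complex (GRMZM2G164558), had 108 and 68.6 FPKM, a log2 ratio of -0.65 (-0.87 centred). GRMZM2G060898, annotated to the reaction of the b6f complex, had 194 and 298 FPKM, a log2 ratio of 0.62 (0.40 centred). GRMZM2G032253, of the ferredoxin and adrenodoxin family, had 118 and 74.8 FPKM, a log2 ratio of -0.65 (-0.86 centred). None of these 6 log2 ratios passed -1 or 1, before or after centring.

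The list of photosystem assembly and repair factors outside the rule had no lower and 3 higher genes of 22, with a median log2 ratio of 0.23, or 0.02 after centring. It included 12 genes of the FtsH family, whose thylakoid members degrade damaged D1 protein. Of these 1 was higher, and the median was 0.30, or 0.09 after centring. FtsH2B (GRMZM2G087598) had 189 FPKM (182 to 196) in control leaf and 259 (249 to 268) in treated leaf. Its log2 ratio of 0.45, or 0.23 after centring, did not pass the limit. The largest difference was at the nuclear Ycf4 locus GRMZM5G883075, with 0.648 and 53.5 FPKM, whose gene is also plastid-encoded. The list took in 3 phytic acid genes that share the symbols of photosystem factors. Of 5 plastid ATP synthase genes 2 were lower, with a median of -0.84. The gamma chain gene GRMZM2G048907, named after its value was seen, had 159 and 100.2 FPKM, while the other 4 carry names of plastid-encoded subunits, among them GRMZM2G326945 (18.1 and 0.323 FPKM) and GRMZM2G391831 (149.99 and 58.4). Of 11 loci with plastid photosystem symbols, chosen by symbol alone, 5 nuclear ones reached 1 FPKM in either library. Their median was -0.14, with 1 lower and 1 higher, both psbE loci (GRMZM2G062044, 33.1 FPKM and listed at 0, and GRMZM2G108467, 10.8 and 130.1).

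The leaf label and the cell types were checked by fixed markers of the C4 leaf. All 9 markers were at 36.1 FPKM or more in both libraries, and all 9 had a lower value in the treated library. The 4 mesophyll markers summed to 6007 FPKM in control leaf and 4892 in treated leaf, with log2 ratios from -0.77 to -0.18 and none counted as lower. The 5 bundle sheath markers summed to 2724 and 1455 FPKM, with log2 ratios from -2.12 to -0.43, and the 2 Rubisco small subunit genes, ssu1 and GRMZM2G113033, were lower. The markers thus shared the direction of most photosystem genes. The median log2 ratio was -0.36 for the mesophyll markers and -0.93 for the bundle sheath markers, against -1.05 for the photosystem genes. The part of these cell types in the result was not tested. The treated library was also the shallower one: over 2066 low genes whose intervals imply whole fragment numbers within 0.01, the FPKM that 1 fragment stands for was 1.25 times the control's.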

How the data were processed

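RNA of 1 control and 1 treated leaf pool was sequenced. The authors' deposited library tables hold FPKM and an interval for it, per the file headers. The authors' deposited comparison tables hold a log2 fold change, a p-value and a q-value, per the file headers. Per the submitters' processing notes, which give no role or order, the tools were Cufflinks 2.2.1, Cuffdiff, Picard 1.115, TopHat2 2.1.0, cutadapt 1.8.1 and Bowtie2 2.2.6. Coordinates are those of the files, whose build was not given in the sources used here. In the comparison tables, the 8 FPKM columns were not used.

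Log2 ratios used a pseudocount of 1 FPKM and genes that reached 1 FPKM in either library. No test was possible with 1 library per group. The half-width of a log2 ratio was taken from the distances between value and upper bound, added in quadrature. An exact 0 can be a missing estimate, so no fold was computed against it. FPKM values keep no library totals, so no counting interval was computed. Roles were assigned by hand from the family descriptions, and 44 of 59 genes matched 1 RefSeq gene (for names alone, from Zm-B73-REFERENCE-NAM-5.0). Every photosystem gene that reached 10 FPKM in either library is named, with those from 1 to 10 FPKM whose absolute log2 ratio is at least 1. Of the related lists, the 2 genes furthest from 0 in log2 ratio among those that reached 10 FPKM are named. Other genes, such as the PsaN-domain and Psb27-H2 genes, were named to complete their families after their values were seen. The members and lists were chosen with earlier results of these data known. Alternatives were other pseudocounts, minimum levels, scalings, fold limits and member sets. Computations used Python 3.11.15, pandas 2.3.3 and numpy 2.4.6, and the ratio code was tested on simulated data.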

Additional observations from a re-analysis of the deposited data

How the results depend on the processing

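The count of 26 lower photosystem genes stayed within 1.5 times under every alternative run (24 to 35), and no gene was counted as higher under any of them. No named gene past the limit changed sign. Of those not past it, the PsbP domain protein 4 gene GRMZM2G087590 went from 0.12 to -0.10 after centring and -0.15 with upper-quartile scaling, and PsbR (GRMZM2G174984) from -0.009 to 0.014 with rescaled totals. Of 314 recomputed log2 ratios of the 40 genes at 10 FPKM or more, 241 moved by less than the half-width of the gene and 73 by more. The 241 include settings that change only which genes are kept (minimum levels and reference matches). These cannot move the ratio of a single gene, so the 241 overstate how stable the ratios were. Centring on the median gene and upper-quartile scaling moved the median log2 ratio of all photosystem genes from -1.05 to -1.27 and -1.32, of photosystem I from -1.44 to -1.65 and -1.71, and of photosystem II from -0.79 to -1.01 and -1.05. The same settings moved the antenna median from -1.37 to -1.59 and -1.64, the assembly factor median from 0.23 to 0.017 and 0.01, and that of loci with plastid symbols from -0.14 to -0.36 and -0.42. Upper-quartile scaling moved the carrier median from 0.07 to -0.18. Restricting to genes with 1 reference match gave medians of -1.28 for all photosystem genes (42 genes) and 0.044 for the loci with plastid symbols. The ATP synthase median of -0.84 went to -1.36 with a pseudocount of 0.1, -1.35 with a minimum of 5 FPKM and -1.33 with each library's FPKM rescaled to a common, larger total, which also makes the pseudocount smaller relative to the values. The number of photosystem II genes counted as lower went from 12 to 19 with upper-quartile scaling and to 20 with a limit of 1.5-fold. Leaving out the PsbK loci was chosen after seeing the data. No paired analysis was possible because each group has 1 library. For the same reason no replicate could be left out, and the difference between the pools cannot be told apart from differences between plants.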

Other observations

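Of the 7 Psb28 loci, 6 lie within 153370744 to 154565951 of chromosome 3. In that stretch GRMZM2G025070, GRMZM2G175804, GRMZM5G883564 and GRMZM2G468702 were listed at 0 in both libraries, while GRMZM2G455676 and GRMZM2G132506 had signal. Of the 59 photosystem genes, 54 carried a gene ontology cellular component in the deposited tables, and 30 were placed in the photosystem II oxygen-evolving complex. Those 30 include Psb28 loci and PsbP-domain genes whose FPKM stayed near the control's, so this term does not separate the genes that were lower from those that were not. All 16 photosystem I genes carried a photosystem I term.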
